A study of Mus musculus with 16 samples.

Results

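The strain-dependent injury response of the mouse flexor tendon is described here as the interaction of strain and injury: the change from uninjured to injured tendon in MRL mice minus the same change in C57 mice, gene by gene. The 30 genes described first were selected on that difference itself, 15 in each direction out of 16391 tested genes and 49568 gene symbols in the count table. Each had a mean of at least 2 CPM (counts scaled to library size) in at least 1 group, had the same direction of interaction when any library was left out or when all 16 libraries were used, and had the smallest p in its direction. Their interaction values are therefore a description of how they were chosen and carry no test. A gene is called MRL-greater when its change after injury was more positive in MRL than in C57, and C57-greater in the opposite case.

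RNA-seq was performed on bulk flexor tendon of young adult male mice of 2 inbred strains bred in-house, C57BL/6J (C57) and MRL/MpJ (MRL), the latter known for healing several tissues with little scarring. The uninjured groups were tendons without surgery, and the injured groups were tendons collected 7 days after the deep flexor of a hind-paw digit had been cut part of the way through. Each of the 4 groups held 4 animals, 1 tendon per library, and the labels name no transgene or drug. The authors' methods give ketamine and xylazine anaesthesia and buprenorphine for the operated mice. The effects of these drugs and of the injury cannot be told apart. The tissue around the tendon and its sheath was kept in all groups, so the libraries hold cells beyond tenocytes. In bulk tissue, fewer cells of a type and less RNA per cell cannot be told apart.

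Tendon healing runs through overlapping phases in which leukocytes enter the wound, fibroblasts of the tendon and its sheath proliferate, and matrix is deposited and later remodelled. Proliferating cells license their replication origins with the MCM helicase before S phase and separate their chromatids at kinetochores in mitosis. Monocytes arrive along gradients of CC chemokines, whereas resident macrophages of connective tissue carry scavenger and mannose receptors. Quiescent perivascular fibroblasts are marked by surface and matrix proteins such as Cd34 and dermatopontin.

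Of the 16 libraries, 14 entered the interaction. They held 12883569 to 23741648 counts, with the injured MRL tendons deepest at 18524170 or more and the other groups at 16829942 or fewer. The 2 libraries labelled uninjured replicate 4 of each strain were set aside and then added back. These 2 stood apart in genes counted in 1 strain only. In the 14 libraries, 17 genes were under 0.2 CPM in every C57 library and over 2 CPM in every MRL library, nearly all of them pseudogenes or predicted genes by their symbols. Their summed level was 101 to 136 CPM in MRL libraries, at most 0.803 CPM in C57 libraries, 322 CPM in the library labelled C57 uninjured replicate 4 and 0.322 CPM in the library labelled MRL uninjured replicate 4. Another 8 genes, among them Trim12a, Rab6b and mt-Nd3, had the opposite pattern, with 51.6 to 126 CPM in C57 libraries, at most 0.168 CPM in MRL libraries and 63.5 CPM in the library labelled MRL uninjured replicate 4. In that labelled C57 uninjured replicate 4, 1 of these 8 genes, Cwh43, was over 0.2 CPM, and the sum was 30.9 CPM. Both libraries thus went against their strain labels in these genes. The library labelled C57 uninjured replicate 4 also held 134898 CPM of 18 epidermal marker genes, compared with 70.3 to 1512 CPM in the 14 libraries. Labels were kept as given. The tendon genes Scx, Tnmd and Mkx were counted in all 14 libraries, at no less than 52.1, 32.9 and 23.8 CPM.

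**Figure D1:**
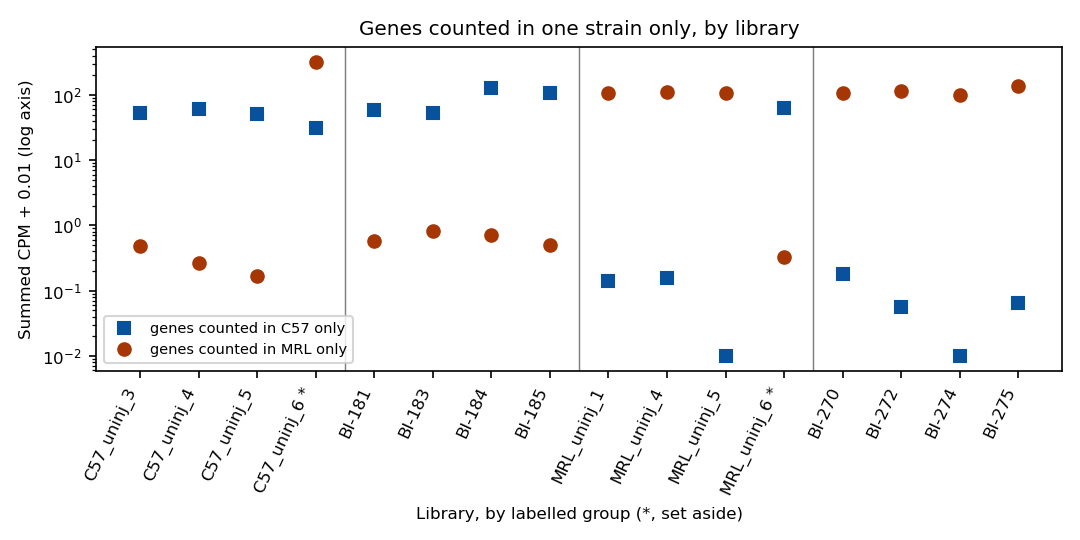
Summed CPM, on a log axis after adding 0.01, of the 8 genes counted in C57 only (squares) and the 17 genes counted in MRL only (circles) in each of the 16 libraries, ordered by labelled group with the 2 libraries set aside marked by an asterisk. Squares lie above circles in the other C57 libraries and below them in the other MRL libraries, the library marked in uninjured MRL has squares above circles, and that marked in uninjured C57 has both high, at 30.9 and 322 CPM.

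No gene passed an adjusted p under 0.05 in the interaction (0 of 16391, 0%; edgeR's quasi-likelihood test with Benjamini-Hochberg adjustment, smallest adjusted p 0.0906). At an unadjusted p under 0.05, 836 genes (5.1%) were MRL-greater and 899 (5.48%) were C57-greater, and these shares are the background for every count below. limma voom also called 0 genes at an adjusted p under 0.05, whereas DESeq2 called 295, of which 130 were MRL-greater and 165 C57-greater. The median interaction over all tested genes was -0.03 on the log2 scale. With all 16 libraries edgeR called 0 genes again, with 1103 MRL-greater and 836 C57-greater at an unadjusted p under 0.05. Leaving out the injured MRL library BI-274 gave 25 calls, 15 of them leading genes, and leaving out BI-272 gave 1. Where a gene list or family is counted below, MRL-greater and C57-greater mean at an unadjusted p under 0.05. p-values measure the spread between these animals, 3 or 4 per group.

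Uninjured MRL was the group with the lowest mean for 11 of the 15 MRL-greater leading genes, and injured C57 was for the other 4, Tspan2, S100g, Ivns1abp and Med13l. In all 15 the mean of the uninjured MRL libraries was below that of the uninjured C57 libraries, and for 14 of them the libraries of both groups did not overlap, whereas after injury 7 of the 15 still separated the strains without overlap. Over all tested genes, 8369 of 16391 were lower in uninjured MRL, and the choice of the genes favours this pattern. The group spans cell division (Pttg1, Knl1), receptors of the wound (Plaur, Tnfrsf12a), microfibrils (Ltbp2) and retinoid handling (Crabp2). It also holds genes of ion and amino acid transport (Fxyd2, Slc38a1, S100g) and actin capping (Capg).

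Pttg1 (chr11:43420250-43426251, GRCm38) encodes securin, which holds separase inactive until anaphase. It stood at 127, 108 and 108 CPM in the uninjured C57 libraries, 114, 77.4, 59.9 and 82.5 in the injured C57 libraries, 9.22, 4.11 and 8.42 in the uninjured MRL libraries and 73.4, 55.7, 25.3 and 109 in the injured MRL libraries. The uninjured MRL libraries were far below all others, and the 3 other groups overlapped. The log2 fold change after injury was -0.45 ± 0.37 (SE) in C57 and 3.18 ± 0.43 in MRL, an interaction of 3.63 ± 0.56. Knl1, a kinetochore scaffold (chr2:119047119-119105501), was at 2.22, 1.49 and 0.309 CPM in the uninjured C57 libraries, 6.33, 14.1, 13 and 4.19 in the injured C57 libraries, 0, 0 and 0.0597 in the uninjured MRL libraries and 19.7, 19.9, 12 and 29.4 in the injured MRL libraries. Its uninjured MRL level was at or under the floor of 3 counts per library, so no fold is given, and the injured groups overlapped.

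Plaur (chr7:24462484-24475968) encodes the urokinase receptor, which focuses plasmin activity on migrating cells. It was at 61.5, 58.2 and 54.7 CPM in the uninjured C57 libraries, 90.2, 94.1, 97.9 and 76 in the injured C57 libraries, 19.2, 28.7 and 23.8 in the uninjured MRL libraries and 121, 101, 105 and 208 in the injured MRL libraries. Every injured MRL library was above every injured C57 library and every uninjured MRL library below every uninjured C57 library, so that the order of the strains reversed with injury. Plaur had an interaction of 1.86 ± 0.33, with a log2 fold change of 0.62 ± 0.23 in C57 and 2.48 ± 0.25 in MRL. RefSeq promoter windows were held for 12 of the 15 MRL-greater genes, 14 windows in all. The AP-1 motif TGANTCA matched 1 of these 14 (7.14%), near its share of 7.81% of all 32851 windows. The match is thus no trait of these genes. It lay in the window of Plaur (GRCm38.p6, chr7:24462233-24462532, plus strand), shown here with the match in capitals:
Plaur: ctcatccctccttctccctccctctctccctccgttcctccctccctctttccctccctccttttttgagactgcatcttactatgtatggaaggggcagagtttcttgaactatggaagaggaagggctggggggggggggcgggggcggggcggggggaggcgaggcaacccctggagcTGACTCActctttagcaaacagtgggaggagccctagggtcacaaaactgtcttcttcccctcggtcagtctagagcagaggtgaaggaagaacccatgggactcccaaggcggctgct

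Tnfrsf12a (chr17:23675445-23677468), the receptor of the cytokine TWEAK, was at 57.2, 31.7 and 58.2 CPM in the uninjured C57 libraries, 66.3, 90.5, 107 and 55.2 in the injured C57 libraries, 21.5, 38.5 and 30.3 in the uninjured MRL libraries and 177, 208, 135 and 339 in the injured MRL libraries. All injured MRL libraries exceeded all injured C57 libraries, and the uninjured groups overlapped. The change was 0.70 ± 0.33 in C57 and 2.83 ± 0.36 in MRL on the log2 scale. Crabp2 (chr3:87948666-87953376), which carries retinoic acid to the nucleus, was at 54.9, 42.4 and 52.9 CPM in the uninjured C57 libraries, 29.6, 64, 59.9 and 43.9 in the injured C57 libraries, 22.9, 23.3 and 8.6 in the uninjured MRL libraries and 96, 135, 79.8 and 265 in the injured MRL libraries. Its C57 groups overlapped, and the injured MRL libraries lay above every other library, with log2 changes of -0.02 ± 0.41 in C57 and 2.98 ± 0.46 in MRL.

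Ltbp2 (chr12:84783212-84876532) encodes a microfibril protein of the latent TGF-beta binding family. It was at 24.1, 35.7 and 37.3 CPM in the uninjured C57 libraries, 96.8, 135, 194 and 118 in the injured C57 libraries, 5.04, 1.59 and 0.478 in the uninjured MRL libraries and 148, 349, 74.2 and 303 in the injured MRL libraries. Injured libraries were higher than uninjured ones in both strains without overlap, and the strains overlapped after injury. The log2 fold change was 2.07 ± 0.61 in C57 and 6.53 ± 0.79 in MRL. Capg, a capping protein of actin filaments, was at 446, 536 and 515 CPM in uninjured C57 and 126, 131 and 147 CPM in uninjured MRL libraries, against 454, 628, 649 and 632 in injured C57 and 384, 389.6, 319 and 387 in injured MRL libraries. MRL stayed below C57 in both conditions, by a smaller margin after injury.

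Another set of MRL-greater genes was lower after injury in C57 and near its uninjured level in MRL. Tspan2, a tetraspanin, was at 174 to 201 CPM before and 51.8 to 90.9 CPM after injury in C57, with no overlap. In MRL it was at 129 to 168 CPM before and 155 to 194 CPM after, and the groups overlapped. S100g, the vitamin D-responsive calcium carrier calbindin-D9k, was at 60.0, 64.9 and 109 CPM in uninjured C57, 5.52, 5.25, 17.5 and 14.1 in injured C57, 39.5, 22.5 and 40.6 in uninjured MRL and 23.7, 42.3, 45.3 and 25.3 in injured MRL libraries, a log2 change of -2.88 ± 0.42 in C57 and -0.00 ± 0.41 in MRL. Ivns1abp had a log2 change of -0.91 ± 0.20 in C57 and 0.38 ± 0.20 in MRL, and Med13l, part of the Mediator kinase module, of -0.84 ± 0.16 and 0.18 ± 0.16. None of the MRL changes in these 4 genes had an adjusted p under 0.05 (edgeR). In all 4 the injured C57 libraries lay below all uninjured C57 libraries.

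In Slc38a1, Fxyd2 and Lgr6 the fitted changes differed in sign between the strains. Slc38a1, a glutamine transporter, was lower after injury in C57 (72.5 to 119.8 against 26.2 to 68.4 CPM) and higher in MRL (27.7 to 29.6 against 53.9 to 117 CPM), without overlap in either strain. Fxyd2, a regulator of the sodium pump, had log2 changes of -0.57 ± 0.27 in C57 and 1.38 ± 0.28 in MRL. Lgr6, an R-spondin receptor, was at 48.4 to 61 CPM in uninjured C57 and 15.5 to 33.4 in injured C57 libraries, and at 0 to 0.464 CPM in uninjured and 4.63 to 56.1 CPM in injured MRL libraries. Cyp4f18, from a family of near-identical cytochrome P450 copies whose reads may be shared, was at 0 CPM in all uninjured MRL tendons and at 1.41 to 6.13 CPM in the injured ones, against 0.649 to 2.4 and 4.09 to 8.83 CPM in C57.

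**Figure D2:**
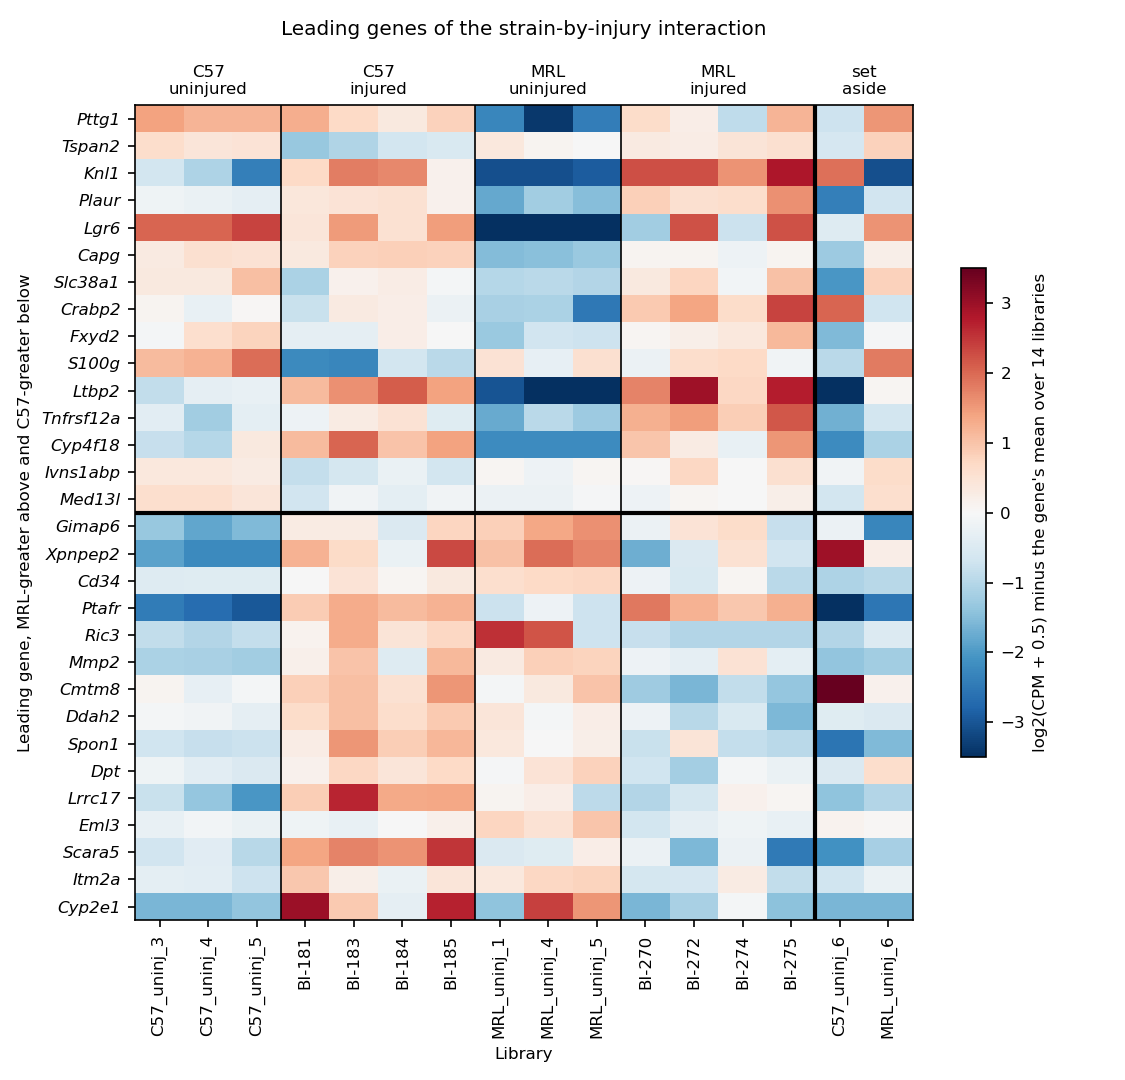
Level of the 30 leading genes (rows; 15 MRL-greater above the thick line, 15 C57-greater below it) in the 14 libraries of the interaction and in the 2 set aside (right of the thick line), as log2(CPM + 0.5) minus the gene's mean over the 14 libraries. Most MRL-greater genes are lowest (blue) in the uninjured MRL libraries, such as Pttg1, and most C57-greater genes are blue in the uninjured C57 libraries, such as Ptafr.

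In all 15 C57-greater leading genes the uninjured MRL mean was above the uninjured C57 mean, and the injured C57 mean was above the uninjured C57 mean. In 14 of the 15 the fitted change was negative in MRL and positive in C57, against opposite signs for 34.7% of all tested genes, a share that the choice of the genes raises. Libraries of injured and uninjured tendon did not overlap in C57 for 14 of the 15 genes and in MRL for 10 of them. Several members are surface or matrix proteins of fibroblasts.

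Cd34 (chr1:194938819-194961279), a sialomucin of perivascular fibroblasts and endothelium, was at 330.1, 334 and 332 CPM in the uninjured C57 libraries, 446, 625, 471 and 567 in the injured C57 libraries, 669.9, 728 and 747 in the uninjured MRL libraries and 398, 311, 475 and 234 in the injured MRL libraries. Injury separated the libraries upward in C57 and downward in MRL, and the injured groups overlapped. Its log2 change was 0.67 ± 0.21 in C57 and -1.01 ± 0.21 in MRL, an interaction of -1.68 ± 0.30. Dpt (chr1:164796644-164824266), dermatopontin, a matrix protein that binds decorin and collagen, was at 98.6, 85.5 and 76.5 CPM in the uninjured C57 libraries, 122, 182, 148 and 178 in the injured C57 libraries, 107, 152 and 191 in the uninjured MRL libraries and 67.1, 48.2, 105 and 92.6 in the injured MRL libraries. The injured MRL libraries were below both the uninjured MRL and the injured C57 libraries, and the C57 change was upward without overlap.

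Mmp2 (chr8:92827291-92853420), a gelatinase of stromal cells, was at 156, 152 and 144 CPM in the uninjured C57 libraries, 378, 673, 247 and 736 in the injured C57 libraries, 414, 598 and 574 in the uninjured MRL libraries and 299, 269.7, 480.0 and 263 in the injured MRL libraries. It was higher in every injured than in every uninjured C57 library, and the MRL groups overlapped. The change was 1.75 ± 0.34 in C57 and -0.69 ± 0.32 in MRL. Spon1, the matrix protein F-spondin, was at 23.2 to 25.1 CPM before and 49.6 to 121 CPM after injury in C57. In MRL it was at 40.3 to 52.9 CPM before and 21 to 56.5 CPM after, where 1 injured library, BI-272, was higher than the uninjured ones.

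Scara5 (chr14:65666403-65764826), a ferritin-binding scavenger receptor of adventitial fibroblasts, was at 24.1, 29.7 and 19.8 CPM in the uninjured C57 libraries, 103, 130.1, 117 and 224 in the injured C57 libraries, 27.2, 28.8 and 45.6 in the uninjured MRL libraries and 33.9, 12.7, 34 and 6.58 in the injured MRL libraries. All injured C57 libraries exceeded all others, and the remaining groups overlapped. Lrrc17 (chr5:21543559-21575904), a secreted leucine-rich repeat protein, followed the same pattern with 41.4 to 145 CPM in injured C57 libraries against 5.03 to 12.8, 11.6 to 26.2 and 10.7 to 25.1 CPM in uninjured C57, uninjured MRL and injured MRL libraries. Ddah2, which degrades methylarginine inhibitors of nitric oxide synthesis, had log2 changes of 0.99 ± 0.27 in C57 and -0.94 ± 0.26 in MRL, and Itm2a, a type II membrane protein, of 0.87 ± 0.29 and -1.01 ± 0.28. Both moved without overlap in each strain.

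Leukocyte genes among the C57-greater set behaved in different ways. Ptafr (chr4:132564067-132582683), the receptor of platelet-activating factor, was at 0.538, 0.389 and 0.232 CPM in the uninjured C57 libraries, 9.93, 13.5, 11.7 and 12.7 in the injured C57 libraries, 2.85, 4.55 and 2.93 in the uninjured MRL libraries and 19.8, 12.7, 10.4 and 13 in the injured MRL libraries. It was higher after injury in both strains, from a lower start in C57, and ended at overlapping levels, with log2 changes of 4.91 ± 0.45 in C57 and 2.02 ± 0.37 in MRL. Gimap6, a GTPase of lymphocytes and endothelium from a family of close copies whose reads may be shared, was at 5.38 to 7.8 CPM in uninjured and 14.2 to 34.5 in injured C57 libraries, and at 36.7 to 62.2 in uninjured and 11.3 to 31.7 in injured MRL libraries.

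Eml3, a microtubule-binding protein, was at 53.3 to 73.6 CPM in uninjured MRL libraries and between 23.8 and 42.4 CPM in the other 3 groups. Cmtm8 was at 5.91 to 12.3 CPM in injured C57 and 0.953 to 1.94 CPM in injured MRL libraries, with 3.11 to 4.24 and 3.72 to 8.3 CPM in the uninjured groups. Xpnpep2, an aminopeptidase, Ric3, a chaperone of nicotinic receptors, and Cyp2e1, a P450 enzyme, had at most 3 counts per library in the uninjured C57 tendons and 1.49 to 11, 0.621 to 2.04 and 0.714 to 11.5 CPM in the injured C57 tendons. In uninjured MRL tendons the same genes were at 4.25 to 8.52, 0.119 to 5.51 and 0.0664 to 7.43 CPM. Cyp2e1 belongs to a P450 family with close copies, so its reads may be shared.

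**Figure D3:**
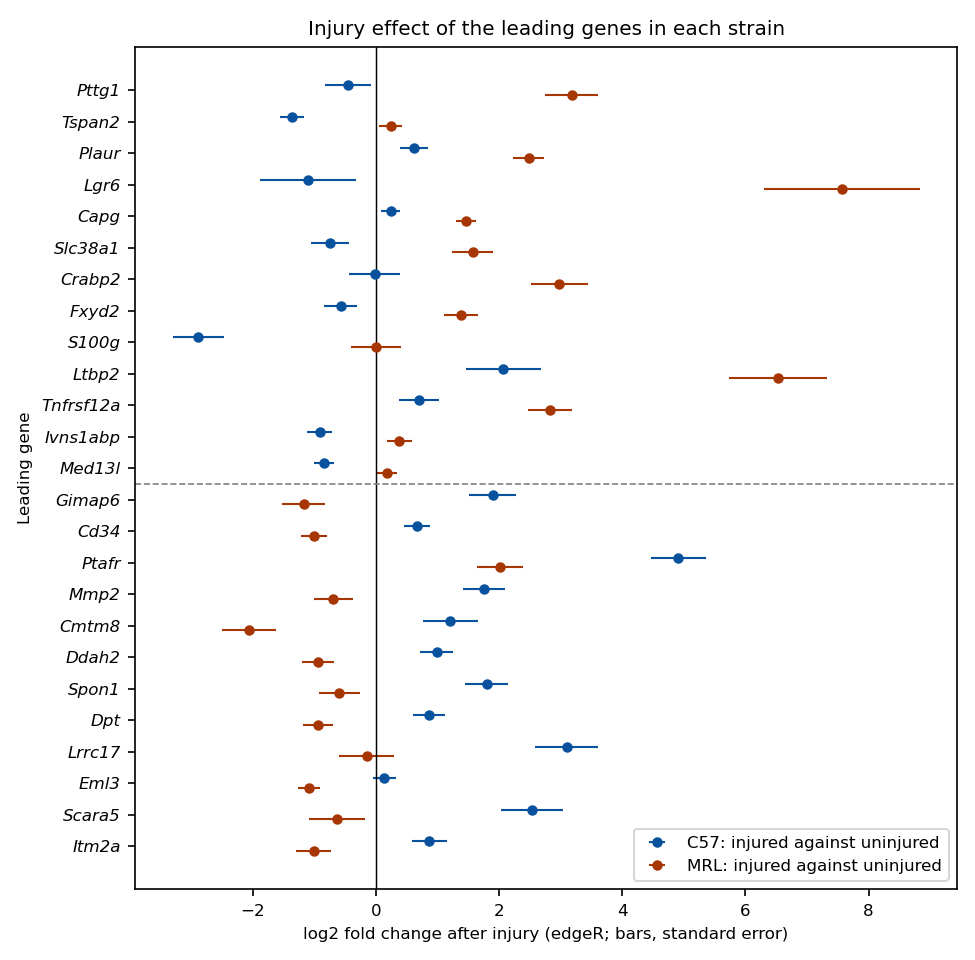
log2 fold change of injured against uninjured tendon (edgeR; bars, standard error) in C57 (blue) and MRL (brown) for the 25 leading genes with no group whose libraries all held 3 counts or fewer (Lgr6, with counts in 1 of its 3 uninjured MRL libraries, is among them), MRL-greater above the dashed line and C57-greater below it. Pttg1 lies at -0.45 in C57 and 3.18 in MRL, and Cd34 at 0.67 and -1.01.

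Just inside and just outside the choice, Med13l had an interaction of 1.02 and Nupr1, the next MRL-greater gene, of 1.45, with ranking p-values from edgeR of 0.000468 and 0.000489. On the C57-greater side Cyp2e1 was the last gene chosen and Adamtsl5, at -1.93, the next, with ranking p-values from edgeR of 0.000373 and 0.000428. The predicted gene Gm38391 met the criteria and was passed over. Gpx3, the secreted glutathione peroxidase, had the second smallest p of the table and was left out because its direction changed with all 16 libraries, and it is named here after its values were seen. It was at 3360.0, 3561 and 6076 CPM in the uninjured C57 libraries, 1116, 1002, 1856 and 1936 in the injured C57 libraries, 94.4, 74.8 and 99.2 in the uninjured MRL libraries and 159, 277, 149 and 215 in the injured MRL libraries. C57 libraries stood above MRL libraries in both conditions, with an interaction of 2.71 ± 0.42. Gpx3 stood at 5249.5 CPM in the library labelled MRL uninjured replicate 4, and that labelled C57 uninjured replicate 4 had 75.7 CPM, and the interaction was -1.64 with both added.

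The leading genes were looked up in the libraries set aside. On the scale of log2(CPM + 0.5), the library labelled MRL uninjured replicate 4 was nearer to the mean of the uninjured C57 libraries than to that of the uninjured MRL libraries for 27 of the 30 genes. The library labelled C57 uninjured replicate 4 was nearer to the uninjured C57 mean for 16 of the 30. Pttg1, for example, was at 138 CPM in the library labelled MRL and at 28.4 CPM in that labelled C57, and Cd34 at 229.6 and 211 CPM. With both libraries added, Pttg1 had an interaction of 0.87 with an unadjusted p of 0.498 (edgeR), and 8 of the MRL-greater and 13 of the C57-greater leading genes had an unadjusted p under 0.05.

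Among gene lists, DNA replication held the largest number of MRL-greater members and the highest median of the 38 lists. It had 11 of the 32 tested genes MRL-greater and 1 C57-greater at an unadjusted p under 0.05, against 5.1% and 5.48% of all genes, and a median interaction of 1.01 on the log2 scale (0.86 to 1.21 with any library left out, 1.27 with 16 libraries). In MRL, 18 of these 32 genes were called higher after injury and 0 lower, where 4.95% of all genes were called higher and 2.2% lower by an adjusted p under 0.05 with a log2 fold change beyond 1 in size. In C57, 5 were called higher and 0 lower, against 2.71% and 0.994% of all genes.

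The MCM genes, which encode the subunits of the replicative helicase and their relatives, made up 6 of its 11 MRL-greater members. The others were Pcna, Rfc4, Rrm2, Mki67 and Hells, named after their values were seen, as was Gins3, the C57-greater one. As a symbol family they had the highest median of 162 families with at least 10 tested members, 1.21, and 6 of the 10 members were MRL-greater, namely the helicase subunits Mcm2 to Mcm7. MCM genes other than Mcm4 and Mcm6 are named after their values were seen. Mcm6 was at 58.6, 79.7 and 85.3 CPM in the uninjured C57 libraries, 56.8, 89.1, 119 and 77.5 in the injured C57 libraries, 43.1, 57.4 and 53.8 in the uninjured MRL libraries and 118, 179, 99.3 and 158 in the injured MRL libraries. Injured and uninjured MRL libraries did not overlap, the C57 groups did, and the interaction was 1.23 ± 0.36. Mcm5 was at 4.37, 10.8 and 10.1 CPM in the uninjured C57 libraries, 20.2, 23.2, 24.5 and 12.8 in the injured C57 libraries, 9.29, 3.1 and 9.14 in the uninjured MRL libraries and 48.1, 60.4, 36 and 60.0 in the injured MRL libraries, and its injured MRL libraries exceeded all others, with an interaction of 1.56 ± 0.55. The interactions of Mcm2, Mcm3, Mcm4 and Mcm7 were 1.47 ± 0.65, 1.19 ± 0.52, 1.29 ± 0.38 and 0.95 ± 0.38. Mcm10, which joins the helicase at origin firing, had 4.54 to 8.03 CPM in injured MRL and 0.621 to 5.32 CPM in injured C57 libraries, and at most 0.843 CPM before injury in either strain. Mcm8 and Mcm9, which act in recombination rather than replication, had interactions of -0.27 ± 0.87 and -0.11 ± 0.47, within their standard errors of 0. So did Mcm3ap, an export factor that is no helicase subunit, at -0.48 ± 0.55.

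The promoter windows of MCM genes are shown because 6 of the 10 symbols, Mcm2 to Mcm7, were MRL-greater at an unadjusted p under 0.05, whereas Mcm8, Mcm9, Mcm10 and Mcm3ap did not pass. RefSeq windows of 250 bases before to 50 bases after a start were held for 9 of the 10 genes, all but Mcm4, in 10 windows. An E2F motif, TTTCCCGC or TTTGGCGC on either strand, was found in 5 of the 10 windows, compared with 1.56% of all 32851 windows, and CCAAT, on either strand, in 9 of the 10, compared with 37.4%. The E2F matches lay in windows of Mcm3, Mcm5, Mcm6, Mcm7 and Mcm8, and thus also in that of a gene whose interaction was within its standard error of 0. Windows were held for 12 of the MRL-greater and 11 of the C57-greater leading genes, and 0 of them had an E2F match. The windows of the 4 helicase subunits with a match follow with the E2F matches in capitals, Mcm3 at chr1:20820263-20820562, Mcm5 at chr8:75109259-75109558, Mcm6 at chr1:128359656-128359955 and Mcm7 at chr5:138171834-138172133 of GRCm38.p6, Mcm5 on the plus strand and the others on the minus strand:
Mcm3: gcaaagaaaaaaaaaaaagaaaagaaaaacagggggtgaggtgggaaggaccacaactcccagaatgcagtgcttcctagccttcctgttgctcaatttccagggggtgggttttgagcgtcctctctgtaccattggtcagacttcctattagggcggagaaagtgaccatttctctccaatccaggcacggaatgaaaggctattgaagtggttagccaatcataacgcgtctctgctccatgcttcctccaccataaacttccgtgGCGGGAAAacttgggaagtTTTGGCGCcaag
Mcm5: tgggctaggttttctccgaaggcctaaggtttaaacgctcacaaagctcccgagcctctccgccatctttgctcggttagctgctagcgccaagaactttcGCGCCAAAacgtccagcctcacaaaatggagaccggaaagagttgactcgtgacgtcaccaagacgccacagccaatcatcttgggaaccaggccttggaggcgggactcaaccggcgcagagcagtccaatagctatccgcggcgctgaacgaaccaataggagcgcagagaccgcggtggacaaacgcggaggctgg
Mcm6: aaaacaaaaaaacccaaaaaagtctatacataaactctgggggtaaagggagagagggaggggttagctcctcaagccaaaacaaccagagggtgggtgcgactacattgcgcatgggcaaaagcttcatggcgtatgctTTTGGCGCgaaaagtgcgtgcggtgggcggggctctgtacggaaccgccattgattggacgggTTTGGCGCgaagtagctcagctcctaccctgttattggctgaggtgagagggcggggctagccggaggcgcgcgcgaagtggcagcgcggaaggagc
Mcm7: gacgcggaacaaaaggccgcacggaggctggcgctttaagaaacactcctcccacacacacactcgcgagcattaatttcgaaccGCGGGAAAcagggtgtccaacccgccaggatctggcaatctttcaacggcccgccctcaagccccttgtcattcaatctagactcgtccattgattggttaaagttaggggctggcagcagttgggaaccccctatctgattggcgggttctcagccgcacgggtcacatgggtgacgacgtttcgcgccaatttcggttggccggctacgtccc

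Mitotic genes had positive medians with fewer members past the threshold. Kinetochore and checkpoint genes had 6 of the 23 tested genes MRL-greater and 0 C57-greater, with a median of 0.86 (0.43 to 1.15 with a library left out). Of these 23 genes, 21 were called higher after injury in MRL against 13 in C57. Mitotic kinesins and spindle proteins had 2 of the 20 tested genes MRL-greater and 1 C57-greater (median 0.90, 0.56 to 1.30 with a library left out). Cyclins and cell cycle kinases had 2 of the 25 tested genes MRL-greater and 0 C57-greater (median 0.69, 0.48 to 1.12 with a library left out). With 16 libraries these medians were 3.03, 2.86 and 2.21, with 13, 7 and 12 members MRL-greater. This rise came with the library labelled C57 uninjured replicate 4, which went against its strain label and was high in epidermal markers. Adding it alone gave 2.94, 3.00 and 2.13, and adding only that labelled MRL uninjured replicate 4 gave 1.13, 0.89 and 0.84. Ube2c, the ubiquitin-conjugating enzyme of the anaphase-promoting complex, was at 47.9 CPM in the library labelled C57 uninjured replicate 4 and at 1.17 to 2.09 CPM in the other uninjured C57 libraries. It was at 6.61 to 34.3 CPM in injured C57, 0 to 0.722 in uninjured MRL and 30.1 to 109.7 CPM in injured MRL libraries. Mki67, the proliferation antigen Ki-67, was at 3.9, 3.89 and 4.25 CPM in the uninjured C57 libraries, 28.3, 64.8, 73.3 and 19.5 in the injured C57 libraries, 1.86, 2.38 and 0.179 in the uninjured MRL libraries and 78.8, 103, 36.1 and 97.8 in the injured MRL libraries. It was higher after injury without overlap in both strains, and the injured groups overlapped, with an interaction of 2.23 ± 0.85. The sliding clamp Pcna had an interaction of 0.91 ± 0.39.

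Among signalling genes of inflammation, the MRL-greater members outnumbered the C57-greater ones. Interleukins, TNF family members and their receptors had 8 of the 29 tested genes MRL-greater and 1 C57-greater (median 0.79, 0.45 to 0.97 with a library left out). Chemokines with their receptors had 7 of the 32 tested genes MRL-greater and 2 C57-greater, or 3 MRL-greater with 16 libraries. The chemokine median was 0.55 (0.16 to 1.38 with a library left out), or 0.41 with group means raised to the 3-count floor. Ccl5, a T cell and monocyte attractant, was at 1.14, 0.13 and 1.31 CPM in the uninjured C57 libraries, 2.98, 3.15, 2.86 and 2.2 in the injured C57 libraries, 0, 0.433 and 0 in the uninjured MRL libraries and 12.8, 14.3, 4.72 and 44.6 in the injured MRL libraries. Injured MRL libraries exceeded all others, by a margin that varied between them. Ccl2, the main monocyte attractant, was at 5.78 to 16 CPM in uninjured and 69 to 294 CPM in injured C57 libraries, and at 0.73 to 4.76 and 161 to 494 CPM in MRL, with Ccl7 at 41.1 to 188 and 101 to 315 CPM in the injured groups. Ccl3, Ccl4 and Il7r had at most 3 counts per library in uninjured MRL and 1.41 to 4.4, 0.0882 to 3.96 and 3.79 to 15.3 CPM in injured MRL. Ccl3 had means of 1.02 and 2.32 CPM in uninjured and injured C57 and 2.45 CPM in injured MRL, so its injured means were close. Ccl4 had means of 0.516 and 0.392 CPM in C57 and 1.71 CPM in injured MRL. Other CC chemokines went the other way: Ccl11, or eotaxin, had 7.72 to 62.6 CPM in injured C57 against 0 to 4.24 CPM in injured MRL libraries, and Ccl24, another eosinophil attractant, 19.9 to 40.4 against 4.63 to 21.4 CPM. Their interactions were -4.52 ± 2.02 and -1.45 ± 0.65. Ccl4, Ccl7, Ccl11 and Ccl24 are named after their values were seen. Il1b rested on single libraries, with 0, 0.195 and 32.3 CPM in the uninjured C57 tendons and 0.631 to 16.7 CPM in the injured MRL tendons.

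MHC class II genes had 4 of the 13 tested genes MRL-greater and 0 C57-greater, the chains H2-Ab1, H2-Eb1 and H2-Aa and the invariant chain Cd74, and the list's median of 0.34 became -0.12 at the floor and was -0.07 to 1.34 with a library left out. H2-Ab1 was at 39.3, 25 and 22.6 CPM in the uninjured C57 libraries, 288, 345, 198 and 275 in the injured C57 libraries, 1.13, 4.62 and 9.2 in the uninjured MRL libraries and 506, 130.3, 88.4 and 238 in the injured MRL libraries. The uninjured MRL libraries were below the uninjured C57 ones, and the injured groups overlapped, with 506 CPM in BI-270. H2 genes have close copies that differ between mouse strains, so their counts are uncertain. S100 and annexin genes had the highest share of MRL-greater members of the 38 lists, with 7 of the 17 tested genes MRL-greater and 1 C57-greater (median 0.75, 0.50 to 0.84 with a library left out), but 2 MRL-greater with 16 libraries. Among the 7 were the neutrophil genes S100a8 and S100a9, and S100a9 was at 0, 0 and 50.2 CPM in the uninjured C57 libraries, so that 1 library set its level there, and at 0.0841 to 5.57 CPM in injured MRL. Anxa8, the member with the smallest p, had log2 changes of -1.17 ± 0.22 in C57 and -0.16 ± 0.22 in MRL, and Anxa1, an inhibitor of leukocyte entry, of -0.20 ± 0.20 and 0.65 ± 0.20.

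**Figure D4:**
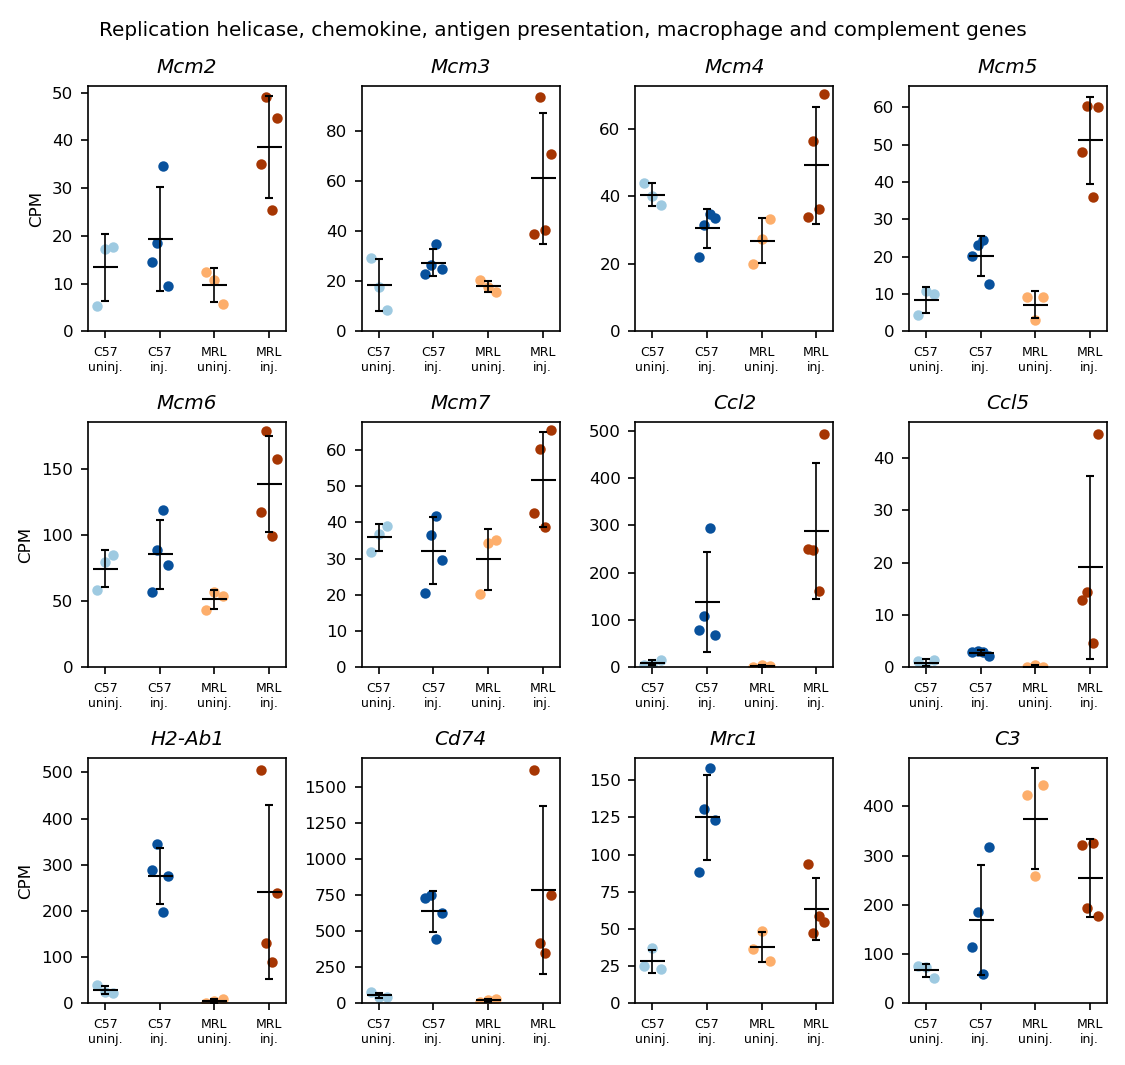
CPM of 12 genes in each of the 14 libraries (points), with the mean (line) and SD (bars) of 3 uninjured or 4 injured libraries per strain, on linear axes that start at 0. Injured MRL libraries lie above the others for Mcm5 and Ccl5, injured C57 libraries lie highest for Mrc1 apart from 1 overlapping MRL library, and uninjured MRL libraries lie above uninjured C57 libraries for C3.

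Contractile genes of smooth muscle and myofibroblasts had 0 of the 18 tested genes MRL-greater and 5 C57-greater, with 17 of 18 fitted values below 0 and a median of -1.59 (-2.80 to -0.91 with a library left out). Rgs5, a marker of pericytes, was at 77.1, 55 and 36.4 CPM in the uninjured C57 libraries, 209, 153, 135 and 153 in the injured C57 libraries, 36.7, 36.8 and 151 in the uninjured MRL libraries and 15.9, 19, 39.2 and 29.5 in the injured MRL libraries. Injured C57 libraries were above uninjured C57 libraries, and the MRL groups overlapped, with 1 uninjured MRL library as high as the injured C57 ones. Acta2, the smooth muscle actin, varied widely within the C57 groups, at 88.2 to 435 CPM before and 91.4 to 923 CPM after injury, with an interaction of -0.99 ± 0.99, which did not pass, nor did Myh11 and Tagln. Synpo2 rested on BI-181, with 329.7 CPM against 6.88 to 24 CPM in the other injured C57 libraries.

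Endothelial genes had 0 of the 26 tested genes MRL-greater and 3 C57-greater (Esam, Lyve1 and Angpt1, the last named after its values were seen; 5 C57-greater with 16 libraries) and a median of -1.59, which became 0.13 without uninjured MRL replicate 3. Esam, an adhesion molecule of endothelial junctions, was at 25.6, 20.6 and 14.2 CPM in the uninjured C57 libraries, 60.8, 52.3, 16 and 36.9 in the injured C57 libraries, 17.3, 9.67 and 18.9 in the uninjured MRL libraries and 3.95, 5.81, 8.91 and 2.01 in the injured MRL libraries. The injured MRL libraries lay below all others, and the C57 groups overlapped. Lyve1, of lymphatic endothelium and perivascular macrophages, had an interaction of -1.56 ± 0.51. The 27 genes of this list summed to 1219 to 1324 CPM in uninjured C57 and 1270.4 to 1763 in injured C57 libraries. The sums were 687 to 981 in uninjured MRL and 766 to 1059 in injured MRL libraries. The defining markers Pecam1, Cdh5 and Prox1 were at most 62.5, 15.5 and 3.98 CPM in any library, so other members carried most of these sums. The list also holds ligands such as Angpt1, so its sum is no measure of endothelial content. A lower endothelial content of MRL libraries as a part of these differences was not tested.

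Non-fibrillar collagens and basement membrane genes had 2 of the 25 tested genes MRL-greater and 7 C57-greater (0 and 6 with 16 libraries, median -0.53, -0.94 to -0.42 with a library left out). Lamc1, the laminin gamma chain of most basement membranes, was at 55.4, 57.4 and 56.6 CPM in the uninjured C57 libraries, 110.0, 146, 187 and 117 in the injured C57 libraries, 49.3, 55.7 and 63.4 in the uninjured MRL libraries and 75.4, 69.3, 66.7 and 56.7 in the injured MRL libraries. Injured C57 libraries were above all others, and the MRL groups overlapped, with log2 changes of 1.31 ± 0.19 and 0.26 ± 0.18. Nid1, which links laminin to collagen IV, had an interaction of -1.70 ± 0.54, and Lamb1 of -2.46 ± 0.87. Col6a3, a chain of the beaded-filament collagen VI, went against the list with 837 to 1906 CPM in injured MRL and 350.4 to 878 CPM in injured C57 libraries, which overlapped. ADAMTS proteases had 0 of the 16 tested genes MRL-greater and 3 C57-greater, and the lowest median of the symbol families at -1.21, or -0.38 without uninjured MRL replicate 3. Adamts5, the main aggrecanase, had an interaction of -0.68 ± 0.29, Adamts1 of -1.56 ± 0.71 and Adamts12 of -3.07 ± 1.10. Eln, or elastin, was at 16.2 to 46.5 CPM in uninjured C57 and 76 to 823 CPM in injured C57 libraries, against 58.8 to 76.8 and 23.7 to 66.3 CPM in MRL.

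Fc receptors and complement genes had 0 of the 22 tested genes MRL-greater and 7 C57-greater, with a median of -0.85 (-1.02 to -0.65 with a library left out). All 7 were complement genes or their regulators, C1qa, C1ra, C1s1, C3, Cfp, Serping1 and Cd55, whereas the 5 Fc receptor genes had interactions of -0.14 (Fcgr1) to 0.71 (Fcer1g) and did not pass. Those not described further are named after their values were seen. C3, the central complement component, was at 76.2, 73.5 and 50.6 CPM in the uninjured C57 libraries, 115, 186, 58.7 and 318 in the injured C57 libraries, 423, 258 and 444 in the uninjured MRL libraries and 322, 194, 325 and 178 in the injured MRL libraries. Uninjured MRL libraries were above all uninjured C57 libraries, and the injured groups overlapped. C1qa, a subunit of the recognition molecule C1q made by macrophages, had log2 changes of 1.52 ± 0.28 in C57 and 0.45 ± 0.27 in MRL. Cfp, or properdin, was higher after injury in both strains, with changes of 2.65 ± 0.22 and 1.79 ± 0.21. Macrophage identity genes had 2 of the 25 tested genes MRL-greater and 8 C57-greater (median -0.27, -0.59 to -0.17 with a library left out). Mrc1, the mannose receptor, was at 25.1, 37.2 and 22.8 CPM in the uninjured C57 libraries, 88.2, 130.4, 158 and 123 in the injured C57 libraries, 36.3, 48.4 and 28.7 in the uninjured MRL libraries and 93.9, 47.2, 58.5 and 54.4 in the injured MRL libraries. All injured C57 libraries were above the uninjured ones and above all but 1 injured MRL library. Cd14, the lipopolysaccharide co-receptor, was MRL-greater, with 30.2 to 44.4 CPM before and 113 to 158 CPM after injury in MRL against 76.7 to 109 and 112 to 196 CPM in C57. The pan-macrophage gene Adgre1 had an interaction of -0.14 ± 0.60, within its standard error of 0. The summed level of the 26 macrophage markers was 643 to 819 and 487 to 793 CPM in uninjured C57 and MRL libraries, and 1413 to 2309.9 and 911 to 1609 CPM in injured ones.

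**Figure D5:**
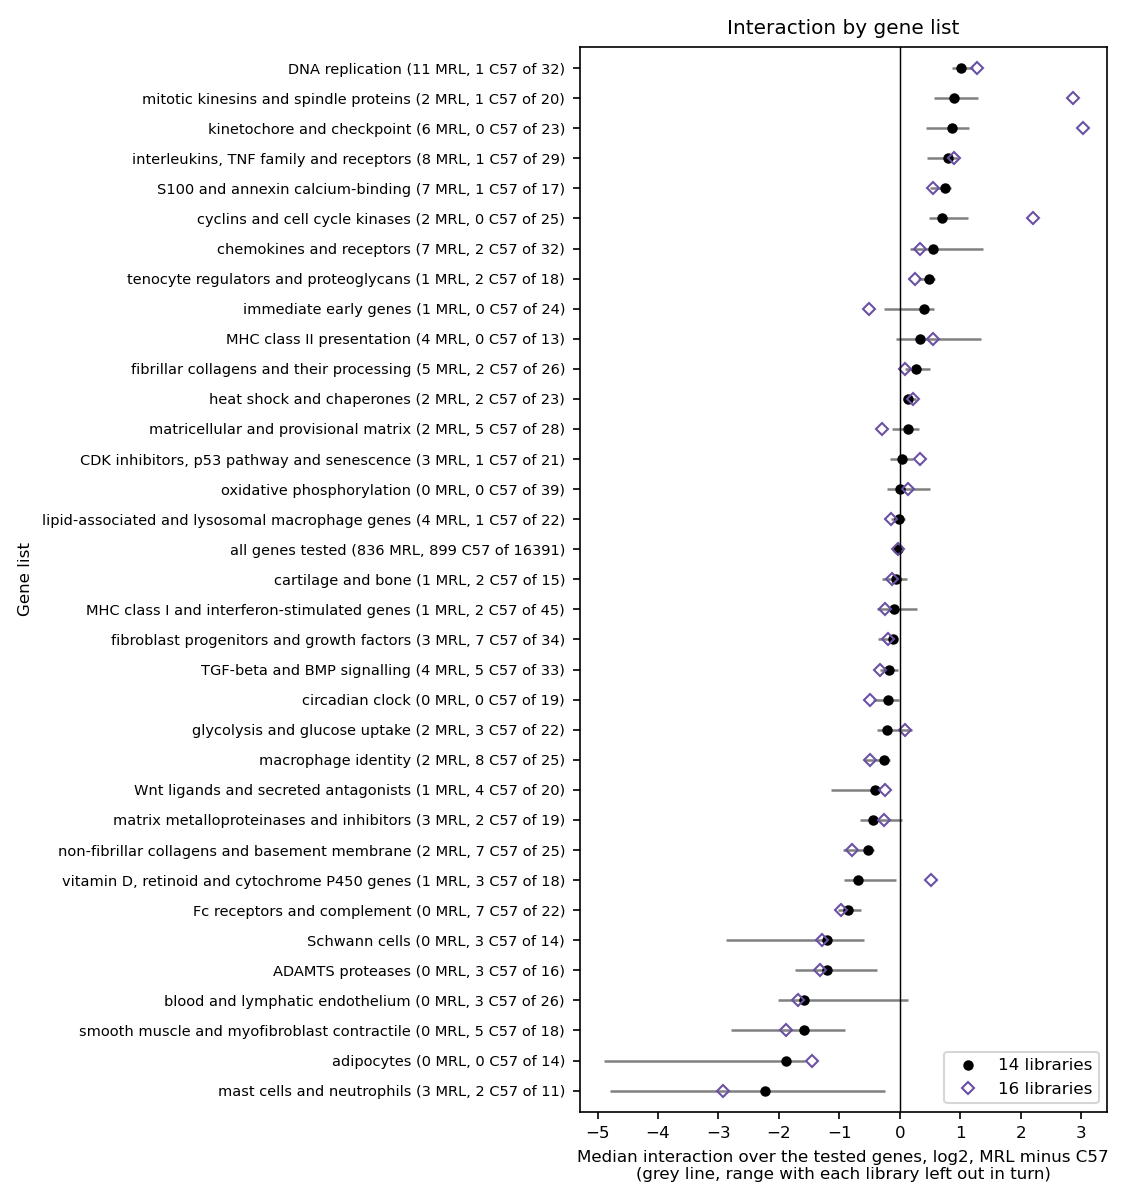
Median interaction (log2, MRL change minus C57 change) of each gene list with at least 10 tested genes, apart from epidermis and skeletal muscle, and of all genes, for 14 libraries (filled circles, with the range when each library is left out in turn as a grey line) and 16 libraries (diamonds); brackets give how many tested genes were MRL-greater or C57-greater at an unadjusted p under 0.05. DNA replication lies highest at 1.01 and the lists of contractile, endothelial, adipocyte and mast cell or neutrophil genes lie lowest.

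Among fibrillar collagens the interactions differed by member. Col1a1 and Col3a1, the main fibrillar collagens, had interactions of 0.02 ± 0.50 and 0.03 ± 0.54, and fibrillar collagens with their processing enzymes had 5 of the 26 tested genes MRL-greater and 2 C57-greater, or 1 and 3 with 16 libraries. The MRL-greater members included 2 of the 3 lysyl hydroxylases, Plod2 and Plod3 (interactions 1.35 ± 0.35 and 0.90 ± 0.32), and Col11a1, which nucleates fibrils and was at 204 to 561 CPM in injured MRL against 24.1 to 94.5 CPM in injured C57 libraries. The other lysyl hydroxylase, Plod1, was at 0.21 ± 0.35 and did not pass, the fibrillar collagen Col5a2 was MRL-greater at 0.87 ± 0.40 and Col24a1 C57-greater at -5.24 ± 2.43, and these genes are named after their values were seen. Tenocyte regulators and proteoglycans had 1 of the 18 tested genes MRL-greater and 2 C57-greater (0 and 2 with 16 libraries). Scx, the tendon transcription factor scleraxis, was at 106, 97.4 and 127 CPM in the uninjured C57 libraries, 52.1, 63.7, 60.6 and 59.6 in the injured C57 libraries, 165, 172 and 113 in the uninjured MRL libraries and 184, 139.7, 127 and 92.2 in the injured MRL libraries. Injured C57 libraries were below all uninjured ones and below all injured MRL libraries, and the MRL groups overlapped, with log2 changes of -0.90 ± 0.21 and -0.14 ± 0.21. Mkx had an interaction of 0.88 ± 0.49 and Tnmd of 0.21 ± 1.10, the latter with 1 injured MRL library at 618 CPM and the other 3 at 32.9 to 82.5 CPM. The proteoglycans Ogn and Aspn were C57-greater, with interactions of -1.64 ± 0.69 and -1.22 ± 0.53.

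Growth factor genes split by member. TGF-beta and BMP signalling genes had 4 of the 33 tested genes MRL-greater and 5 C57-greater (2 and 4 with 16 libraries). Their median was -0.18 (-0.33 to -0.03 with a library left out), -0.32 with 16 libraries and 0.01 among genes with a mean of at least 5 CPM. Tgfb1 was at 56.1, 37.3 and 51.1 CPM in the uninjured C57 libraries, 50.0, 78.4, 51.3 and 64 in the injured C57 libraries, 29.4, 32.6 and 29.2 in the uninjured MRL libraries and 47.3, 102, 77 and 59.8 in the injured MRL libraries. Its MRL groups separated and its C57 groups overlapped, with an interaction of 0.90 ± 0.35. Inhba, the activin A chain, was at 204 to 1626 CPM in injured MRL and 26.9 to 116 CPM in injured C57 libraries, and Gdf10 had an interaction of -2.94 ± 0.88. Wnt ligands and antagonists had 1 of the 20 tested genes MRL-greater and 4 C57-greater (2 and 1 with 16 libraries), with Wnt5b MRL-greater at 1.67 ± 0.43 and Wnt11 and Sfrp4 C57-greater at -2.01 ± 0.69 and -3.45 ± 1.21. Fibroblast progenitor and growth factor genes had 3 of the 34 tested genes MRL-greater and 7 C57-greater (1 and 7 without BI-181, 1 and 5 with 16 libraries). Pi16, a marker of adventitial fibroblasts named after its values were seen, was at 11.8, 5.19 and 3.63 CPM in the uninjured C57 libraries, 213, 359, 109.9 and 383 in the injured C57 libraries, 2.46, 1.95 and 36.1 in the uninjured MRL libraries and 1.64, 12.1, 61.2 and 12.8 in the injured MRL libraries, with injured C57 libraries above all others, and Fgf7 had an interaction of -2.30 ± 0.84. Pdgfa was MRL-greater at 0.81 ± 0.27.

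Other wound genes and the stress and cycle-arrest genes moved in both directions. Matricellular genes had 2 of the 28 tested genes MRL-greater and 5 C57-greater (2 and 7 without BI-181, 0 and 5 with 16 libraries), and their median of 0.13 became -0.30 with 16 libraries. Spp1, or osteopontin, was at 5905, 4086 and 6153 CPM in the uninjured C57 libraries, 2389, 9043, 5584 and 5891 in the injured C57 libraries, 2793, 1799 and 2548 in the uninjured MRL libraries and 4831, 34506, 8853 and 21059 in the injured MRL libraries, with MRL groups apart and C57 groups overlapping. Ctgf and Nov, members of the CCN family, had interactions of 1.31 ± 0.37 and -2.10 ± 0.60. Matrix metalloproteinases and inhibitors had 3 of the 19 tested genes MRL-greater and 2 C57-greater, and Timp1, a secreted metalloproteinase inhibitor, was at 528 to 5090.1 CPM in injured MRL against 128 to 484 CPM in injured C57 libraries. Mmp12 had at most 3 counts in every uninjured library and 4.1 to 46.1 and 32.3 to 637 CPM in injured C57 and MRL libraries, which overlapped. Cyp24a1, the vitamin D hydroxylase, was at 5.41 to 43 and 22.8 to 45.9 CPM in uninjured C57 and MRL libraries, had no counts in injured C57 libraries and 0 to 7.1 CPM in injured MRL libraries. CDK inhibitor, p53 and senescence genes had 3 of the 21 tested genes MRL-greater and 1 C57-greater (2 and 1 without BI-181 and with 16 libraries), with Cdkn1a at 0.69 ± 0.31, Mdm2 at 0.69 ± 0.23, Gadd45a at 1.15 ± 0.40 and Cdkn1c, or p57, at -1.64 ± 0.50. Bcl2 had an interaction of 0.28 ± 0.48, within its standard error of 0.

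The remaining lists were counted in the same way. Oxidative phosphorylation had 0 of 39 and circadian clock 0 of 19 genes at an unadjusted p under 0.05 in either direction (edgeR), and immediate early genes 1 of 24 MRL-greater, or 1 C57-greater with 16 libraries, where their median went from 0.40 to -0.51. With 16 libraries oxidative phosphorylation and clock genes had 1 in each direction. Without BI-181, the library with most muscle markers, 7 of the 39 oxidative phosphorylation genes were MRL-greater and the list's median went from -0.00 to 0.50. MHC class I and interferon-stimulated genes had 1 of the 45 tested genes MRL-greater and 2 C57-greater (0 and 1 with 16 libraries), and heat shock genes 2 of the 23 tested genes MRL-greater and 2 C57-greater (4 and 2 without BI-181). Lipid-associated and lysosomal macrophage genes had 4 of the 22 tested genes MRL-greater and 1 C57-greater (4 and 3 without BI-181), glycolysis genes 2 of the 22 tested genes MRL-greater and 3 C57-greater (6 and 3 without BI-181), cartilage and bone genes 1 of the 15 tested genes MRL-greater and 2 C57-greater (1 and 3 without BI-181, 2 and 1 with 16 libraries), and vitamin D, retinoid and P450 genes 1 of the 18 tested genes MRL-greater and 3 C57-greater. The 18.2% of lipid-associated macrophage genes that were MRL-greater and the 16.7% of vitamin D, retinoid and P450 genes that were C57-greater compare with 5.1% and 5.48% of all genes, and with 16 libraries they were 2 and 1 genes, and the median of the vitamin D list went from -0.69 to 0.51.

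Over all 162 symbol families, those with the highest medians after Mcm were Ccl (0.72, or 0.37 at the floor, 5 of 16 genes MRL-greater and 2 C57-greater), the mostly ribosomal symbols Rps (0.55) and Rpl (0.54), and the glycosylation enzymes Alg (0.49). The place of Ccl was not firm. Its median was 0.24 to 1.68 with a library left out and -0.07 among genes with a mean of at least 5 CPM. With 16 libraries 3 Ccl genes were MRL-greater. Above 0 were 54 of 58 fitted Rpl values, with 8 Rpl symbols MRL-greater (4 without BI-181, 25 with 16 libraries). The Rps symbols, 26 of them MRL-greater with 16 libraries, take in pseudogenes, S6 kinases and a binding protein besides ribosomal proteins, and their 2 C57-greater members were the kinases Rps6ka1 and Rps6ka2, named after their values were seen, against 4 MRL-greater. Both medians rested partly on BI-275, without which they were 0.20 for Rpl and 0.21 for Rps, and pseudogene copies can share reads. The Mcm median was 0.99 to 1.34 with any library left out. The lowest medians after Adamts were those of the lipid transporters Abca (-1.11, 3 of 10 C57-greater), Unc (-0.81), which joins unrelated genes under 1 root (3 of 13 C57-greater, 1 with 16 libraries), the phosphodiesterases Pde (-0.76, 2 of 19 in each direction, but 2 MRL-greater and 4 C57-greater with a median of -0.42 without BI-181, and 0 and 4 with 16 libraries) and Wnt (-0.73, which became 0.68 with 16 libraries and 0.14 without BI-181).

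Markers of neighbouring tissues were high in single injured C57 libraries, and epidermal markers in the library labelled C57 uninjured replicate 4. Their part in the results was not tested beyond leaving out a library. The 20 skeletal muscle markers summed to 96104 CPM in BI-181 and 2709.7 CPM in BI-183, and to 8.58 to 17.8 CPM in the other 12 libraries. Of the 11 muscle genes tested, 7 were C57-greater at an unadjusted p under 0.05, and 6 without BI-181. The adipocyte list summed to 7422 CPM in BI-181 and at most 766 CPM elsewhere. Its defining genes Adipoq, Plin1 and Cidec were at most 20.9, 2.22 and 12.2 CPM in any library, so other members carried the sum in BI-181. That sum is therefore no measure of fat. In this list 0 of 14 genes passed an unadjusted p under 0.05 (edgeR), or 2 C57-greater with 16 libraries. Without BI-181, 4 contractile, 8 complement, 9 macrophage and 6 basement membrane genes were C57-greater, against 5, 7, 8 and 7 with it. DNA replication had 8 MRL-greater genes without BI-181, against 11 with it. Schwann cell genes had 0 of the 14 tested genes MRL-greater and 3 C57-greater (2 without BI-181), with summed levels of 967 to 2339 CPM in injured C57 and 598 to 1057 CPM in injured MRL libraries. Of 25 lymphocyte markers only 6 were tested, 3 of them C57-greater (1 with 16 libraries), at summed levels of at most 62.8 CPM in the 14 libraries. Mast cell and neutrophil genes had 3 of the 11 tested genes MRL-greater and 2 C57-greater, with summed levels of 163 CPM in 1 uninjured C57 library and 12.2 and 14.9 CPM in the others, and red blood cell genes 0 of 6. Epidermal genes had 0 of 16, but 7 MRL-greater with 16 libraries, where their median went from 0.53 to 6.28. Their median was 6.01 without uninjured MRL replicate 1 and -1.98 without uninjured C57 replicate 3.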

How the data were processed

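RNA was measured in 16 libraries of single flexor tendons, 4 per strain and condition, grouped by the deposited labels. Reads were 100 nt, single-end. The authors removed adapters (Trimmomatic 0.36), aligned to GRCm38.p5 (STAR 2.5.2b) and, by the submitters' processing notes, ran featureCounts of Subread 1.5.0p3. They deposited raw counts per symbol, 49568 in all, with no normalization. The counting annotation and strand setting are not given in the sources used here, so overlapping genes, antisense genes and close copies are uncertain. The methods describe pre-amplified RNA and the labels a TruSeq kit.

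The interaction was fitted with edgeR 4.0.16 in R 4.3.3 (TMM, expression filter, robust quasi-likelihood, 4 groups, 14 libraries). A standard error is the absolute log2 fold change divided by the root of F. CPM use TMM-adjusted sizes of all 16 libraries. The floor is 3 counts, 0.126 to 0.232 CPM. Coordinates are GENCODE M21 (GRCm38), and promoter windows RefSeq's of GRCm38.p6. Named genes are the 30 leading genes, passing over predicted, epidermal and muscle genes, 14 genes always named, and up to 4 genes with the smallest p per list; exceptions are marked. Members and the 38 gene lists were chosen with earlier results of these data known, and the lists carry no test. The scripts were tested on simulated counts.

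Alternatives were DESeq2 1.42.0, limma 3.58.1 voom, other scalings and filters, thinning, other library sets and a replicate block. Uninjured replicate numbers of the 2 strains belong to different animals, and the correlation of same-numbered deviations was -0.23, 0.09 and -0.19, so numbers pair nothing.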

Additional observations from a re-analysis of the deposited data

Results flagged for a closer look

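Genes counted in 1 strain only gave a signal in the 2 libraries outside the interaction: 322 CPM of the MRL-only genes in the library labelled C57 uninjured replicate 4, and 63.5 CPM of the C57-only genes in the library labelled MRL uninjured replicate 4. The origin of this signal was not tested.

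A group of 10 leading genes had fitted changes of opposite sign in the 2 strains, without overlap of injured and uninjured libraries in either. For Ric3 this rested in MRL on 0.119 CPM in an uninjured and 0.0841 CPM in an injured library, both at most 3 counts, so that no separation was detectable there. They are Lgr6 (interaction 8.68), Slc38a1 (2.31), Gimap6 (-3.07), Xpnpep2 (-8.95), Cd34 (-1.68), Ric3 (-11.25), Cmtm8 (-3.27), Ddah2 (-1.94), Dpt (-1.80) and Itm2a (-1.89). They were chosen on this difference, so it was not tested, and the fitted values of Lgr6, Xpnpep2 and Ric3 depend on groups with few or no counts and are no measure of size.

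Single libraries stood apart from the other 3 of their group for 5 genes, by Dixon's criterion on 246 groups of 4, where chance marks about 1 in 20. In injured C57, Capg was at 454 CPM in BI-181 against 628 to 649 CPM, Col11a1 at 24.1 CPM in BI-181 against 80.5 to 94.5 CPM, and Mdm2 at 46.7 CPM in BI-183 against 64.2 to 67.8 CPM. In injured MRL, Capg was at 319 CPM in BI-274 against 384 to 389.6 CPM, Spon1 at 56.5 CPM in BI-272 against 21 to 23.6 CPM, and Ric3 at 0.0841 CPM in BI-270 against 0 in the others, which is at most 3 counts.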

How the results depend on the processing

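The count of interaction calls (0 with edgeR) was 295 with DESeq2, where 28711 genes were tested, 6 without the expression filter, and 0 to 25 with any library left out, the 25 without BI-274. It was 0 with the other library sets and scalings. Calls after injury, 608 in C57 and 1173 in MRL, were 1277 and 1870 with DESeq2 and, in C57, 367 with 16 libraries. With any library left out they were 263 to 737 in C57, lowest without an uninjured C57 library (308, 263 and 269), and 564 to 1477 in MRL, lowest without an uninjured MRL library (564, 632 and 774). With the replicate block, which pairs libraries that share only a number, they were 203 and 373, and the interaction again had 0 calls. The 30 leading genes were chosen for 1 sign with 16 libraries and with any library left out, so those settings say nothing of their stability. They had that sign in the other alternatives too. The share of MRL-greater genes among those at an unadjusted p under 0.05 was 48.2%, 39.1% with total counts as library sizes and 56.9% with 16 libraries.

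Some interactions changed sign, most of them near 0 or with a wide range when a library was left out. Gpx3, at 2.71 ± 0.42 in 14 libraries, was neither, and turned with the library labelled MRL uninjured replicate 4, which went against that label. With 16 libraries Gpx3 was at -1.64 and Col3a1 at -0.05. With the library labelled MRL uninjured replicate 4 alone Gpx3 was at -1.23 and Bcl2 at -0.05, and with that labelled C57 uninjured replicate 4 alone Col1a1 was at -0.17 and Col3a1 at -0.21. Both collagens were at -0.05 with total counts. Limma voom gave -0.64 for Tnmd, and voom with quality weights on 16 libraries gave -0.33 for Tnmd and 0.12 for Mcm9. With any library left out, Adgre1 ranged from -0.59 to 0.16, Bcl2 from -0.07 to 0.54, Col1a1 from -0.28 to 0.22, Col3a1 from -0.22 to 0.27, Tnmd from -1.43 to 0.57, Mmp12 from -0.54 to 3.07, Mcm8 from -0.62 to 0.43, Mcm9 from -0.29 to 0.21 and Mcm10 from -2.41 to 6.51. The cause of these changes was not tested.

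Each uninjured group of the interaction held 3 libraries. Genes with a group at or under 3 counts have fitted values that depend on the prior count, and 5 of the 30 leading genes are of this kind. The size fitted for Lgr6, with counts in 1 of 3 uninjured MRL libraries, is no more certain. How reads of close copies (ribosomal, MHC, CC chemokine, Gimap, P450) were assigned is not given in the sources used here. The 2 libraries that went against their strain labels were neither relabelled nor explained, and skeletal muscle markers and the sum of the adipocyte list differed between libraries. The intervals of the text cover the spread between these animals only.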
